A study of Mus musculus with 8 samples.

Results

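The promoters of the cytosolic ribosomal protein genes were examined in 8 Flag CUT&Tag libraries from mouse embryonic fibroblasts (MEFs) collected on day 3 of reprogramming. The members were the protein-coding genes whose symbol is Rpl or Rps with a number and an optional letter, x or l ending, together with Rplp0, Rplp1, Rplp2 and Rpsa. They numbered 81 of the 21938 protein-coding genes of the annotation. Of these 81 genes, 50 encode proteins of the large subunit and 31 encode proteins of the small subunit, and they lie on 19 chromosomes. The 10 Rps6k kinase genes and 6 protein-coding entries named as pseudogenes were left out.

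In CUT&Tag, a transposase tethered to an antibody cuts the DNA near the antibody's target and adds adapters for sequencing. Here the antibody was against the Flag epitope on a delivered factor. Each of Nanog, Oct4, Sox2 and Nr5a2 was profiled unfused (native) and as a BiD fusion, in which a BRG1-interacting domain of SS18 is joined to the N-terminus. The groups are native Nanog, NanogBiD, native Oct4, Oct4BiD, native Sox2, Sox2BiD, native Nr5a2 and Nr5a2BiD, all at day 3 in MEFs that carry the OG2 (Oct4-GFP) transgene and received factors from retroviral vectors. Whether the same cells received other factors as well is not given in the titles, and the factors are driven by the vectors, not by their own genes. Each group holds 1 library, so no difference between libraries has a replicate check, and no test was run. With no control library, peaks from open chromatin cannot be told apart from binding sites of the tagged factor.

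Ribosomal protein genes are needed in every dividing cell, and their transcripts are among the most abundant of the cell. Their promoters mostly lack a TATA box, and many of their transcripts start at a C within a run of pyrimidines, the terminal oligopyrimidine (TOP) tract through which growth signals regulate their translation. Because they are active in nearly all cell types, they are often used as examples of promoters that are always open.

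The letters of the start regions are shown for members with the highest and the lowest mean peak rank, so that start regions at both ends of the range can be compared. RefSeq promoters (build GRCm38.p6, the assembly behind mm10) from 250 bases before to 50 bases after the start were matched for 61 of the 81 members and for 16521 protein-coding genes. In the windows printed here, of 150 bases with 100 before the start, capitals mark the ETS core CCGGAAG, the YY1 core AAGATGGC, the SP1 core GGGCGG, the TATA box TATAAA and the E-box CACGTG on either strand, and CTTTC on the sense strand within 20 bases of the start. For 5 of the 6 members with the highest mean peak rank the windows read:
Rps19, chr7:24884492-24884641, plus strand: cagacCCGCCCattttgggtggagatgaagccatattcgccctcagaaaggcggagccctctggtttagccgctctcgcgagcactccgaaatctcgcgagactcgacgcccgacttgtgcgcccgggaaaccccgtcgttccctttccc
Rpl37, chr15:5116513-5116662, plus strand: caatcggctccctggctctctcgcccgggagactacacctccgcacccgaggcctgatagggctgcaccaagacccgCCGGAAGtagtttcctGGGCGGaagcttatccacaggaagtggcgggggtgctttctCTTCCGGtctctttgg
Rps27l, chr9:66945986-66946135, plus strand: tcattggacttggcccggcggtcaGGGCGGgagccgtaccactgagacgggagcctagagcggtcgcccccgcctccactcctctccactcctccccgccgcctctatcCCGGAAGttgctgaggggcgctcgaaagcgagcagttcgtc
Rps21, chr2:180257279-180257428, plus strand: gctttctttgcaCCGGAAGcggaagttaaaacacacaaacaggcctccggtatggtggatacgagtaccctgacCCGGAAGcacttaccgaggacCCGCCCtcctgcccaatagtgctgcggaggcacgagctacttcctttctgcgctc
Rpl27, chr11:101442145-101442294, plus strand: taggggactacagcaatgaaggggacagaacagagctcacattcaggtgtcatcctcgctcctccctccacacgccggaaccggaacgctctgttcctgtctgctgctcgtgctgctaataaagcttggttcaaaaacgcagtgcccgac

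Rpl37 and Rps21 each held 2 ETS cores and an SP1 core in the window, and Rps27l held an ETS core and an SP1 core. Rps19 held an SP1 core at the far end of its window, and Rpl27 held none of the motifs searched. The windows were placed by the RefSeq start and not by the summits, so a window need not hold the peak. At Rps19 the summits of all 8 libraries (24884101 to 24884405) lay upstream of the window. At Rps21 only that of NanogBiD (180257310) lay inside. For 3 matched members of the 6 with the lowest mean peak rank the windows read:
Rps27, chr3:90213599-90213748, minus strand: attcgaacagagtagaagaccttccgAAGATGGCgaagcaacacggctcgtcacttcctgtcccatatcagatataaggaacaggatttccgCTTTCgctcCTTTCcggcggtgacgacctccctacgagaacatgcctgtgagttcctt
Rpl19, chr11:98026610-98026759, plus strand: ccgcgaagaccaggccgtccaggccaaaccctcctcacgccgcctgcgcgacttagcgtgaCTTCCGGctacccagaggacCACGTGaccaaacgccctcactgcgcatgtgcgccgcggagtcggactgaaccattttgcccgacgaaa
Rpl3l, chr17:24727726-24727875, plus strand: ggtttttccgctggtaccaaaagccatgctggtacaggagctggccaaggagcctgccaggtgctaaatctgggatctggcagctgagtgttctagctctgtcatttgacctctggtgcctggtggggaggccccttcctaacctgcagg

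Rps27 had a YY1 core upstream and CTTTC on both sides of its start, and Rpl19 had an ETS core and an E-box. Rpl3l, whose expression is restricted to striated muscle, held none of the motifs. Over the 61 matched promoters, 24 (39.3%, 95% interval 27.1 to 52.7) held the ETS core, against 12.3% of all matched promoters. CTTTC within 20 bases of the start on the sense strand was found in 18 of the 61 (29.5%, 18.5 to 42.6) and in 4.89% of all promoters. The same letters on the antisense strand were found in 4.92% of the members and in 4.07% of all promoters. The TATAAA letters were found in 8.20% of the members and in 12.9% of all, and CACGTG in 8.20% and 8.09%. The YY1 core was in 6.56% against 3.27%, and GCATGCGC, the NRF1 core, in 3.28% against 3.76%. The SP1 core was in 59.0% of the members (45.7 to 71.4) and in 48.2% of all promoters, a background within the interval. Median GC content over the 300 bases was 57% in both sets. The ratio of observed to expected CpG had a median of 0.870 in the members and of 0.602 in all promoters. A match is a description of letters and not a measured site.

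A gene was counted in a library when the summit of at least 1 peak lay within 2 kb of any of its annotated start sites. By this count, most ribosomal protein genes had a promoter summit in 7 of the 8 libraries, and few had one in native Sox2. The exact (Clopper-Pearson) 95% intervals given below cover counting error only. In native Nanog, 73 of 81 members had a summit (90.1%, 81.5 to 95.6), against 51.2% of all protein-coding genes. NanogBiD had 75 (92.6%, 84.6 to 97.2), against 54.5%.

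In native Oct4 the count was 51 (63.0%, 51.5 to 73.4), against 39.0% of all genes, and in Oct4BiD it was 76 (93.8%, 86.2 to 98.0), against 55.9%. Native Sox2 had summits at 21 members (25.9%, 16.8 to 36.9), and the background there was 25.2%. Sox2BiD had 71 (87.7%, 78.5 to 93.9), against 53.4%. The native Nr5a2 library had 73 (90.1%, 81.5 to 95.6), against 63.5%, and Nr5a2BiD had 67 (82.7%, 72.7 to 90.2), against 54%. The share of members was thus 1.42 to 1.76 times the share of all genes in 7 libraries, and 1.03 times in native Sox2, where the background lay within the interval of the members.

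**Figure D1:**
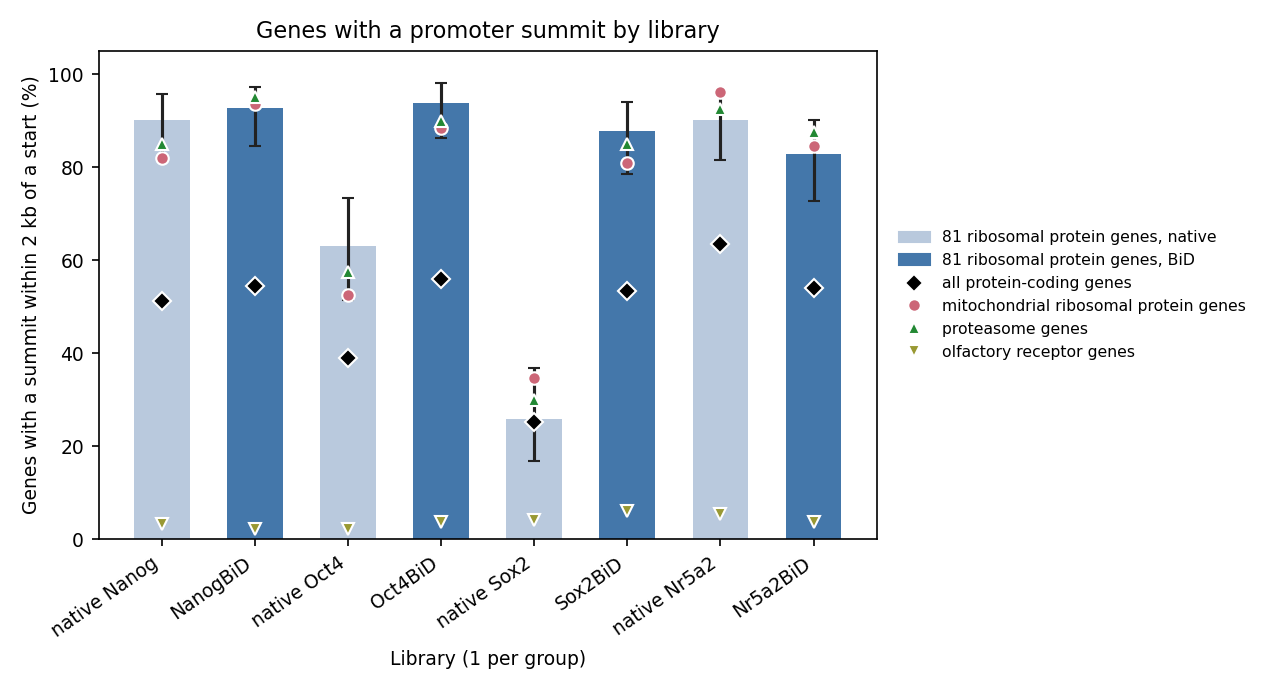
Share of genes with a peak summit within 2 kb of a start site (y axis, percent) in each of the 8 libraries (x axis). Bars are the 81 ribosomal protein genes with exact 95% intervals, and symbols are the shares of all protein-coding genes and of 3 gene lists. The bars lie between 82.7% and 93.8% in 6 libraries, at 63.0% in native Oct4 and at 25.9% in native Sox2, where the bar meets the symbol of all genes.

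The libraries differed in how many peaks were called, from 54794 in native Oct4 to 120594 in Sox2BiD, and native Sox2 had 58162. The lowest summit heights were 6 tags in native Nanog and 10 tags in native Sox2, with medians of 16 and 22 tags in these lists. The lists give no read totals. The study's reporting summary lists more read pairs under the names of native Oct4 and native Sox2 than under those of their BiD libraries. These are totals before reads were filtered. The pairs listed there as uniquely mapped were also more under both of these native names. Under the names of Nanog and Nr5a2, fewer pairs are listed for the native library than for the BiD library, by either count. The part of depth in the lower shares of native Oct4 and native Sox2 was not tested. The fibroblast label was looked at through 8 fibroblast genes, of which 5 to 8 had a promoter summit per library, with Vim, Col1a2, Fn1 and Twist1 in all 8 and Pdgfrb in 4. Of 8 genes of blood, liver and neural cells, 0 to 5 had a summit per library, from none at the B cell gene Cd79a and the globin gene Hbb-bs to 6 libraries at the astrocyte gene Gfap.

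Most of these genes did not have a summit in every library, and a missing summit does not measure whether a promoter is open. A summit in all 8 libraries was found at 18 members (22.2%, 13.7 to 32.8), against 17.2% of all protein-coding genes, a background that lies within the interval. They included Rpl3, Rpl7, Rpl10, Rpl13a, Rpl15, Rpl18, Rpl27, Rpl37, Rpl38, Rps3, Rps12, Rps16, Rps19, Rps21, Rps27l and Rps29. With native Sox2 left out, 44 members (54.3%) had a summit in each of the other 7 libraries, against 29.6% of all genes. A summit in 7 or 8 libraries was found at 45 members (55.6%, 44.1 to 66.6), against 32.6% of all genes. Only Rpl8 had a summit in none of the 8 libraries (1.23%, 0.0313 to 6.69), against 24.4% of all genes.

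Native Sox2 was the library most often missing. It alone was missing at 26 members (32.1%, against 12.4% of all genes), among them Rplp0, Rplp1, Rplp2, Rps14 and Rps20. Native Oct4 and native Sox2 alone were missing together at 9 members (11.1%, against 4.53%), Rpl11, Rpl14, Rpl23, Rpl26, Rpl39, Rps9, Rps13, Rps15 and Rps15a. Rps26 lacked a summit in native Oct4 alone.

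**Figure D2:**
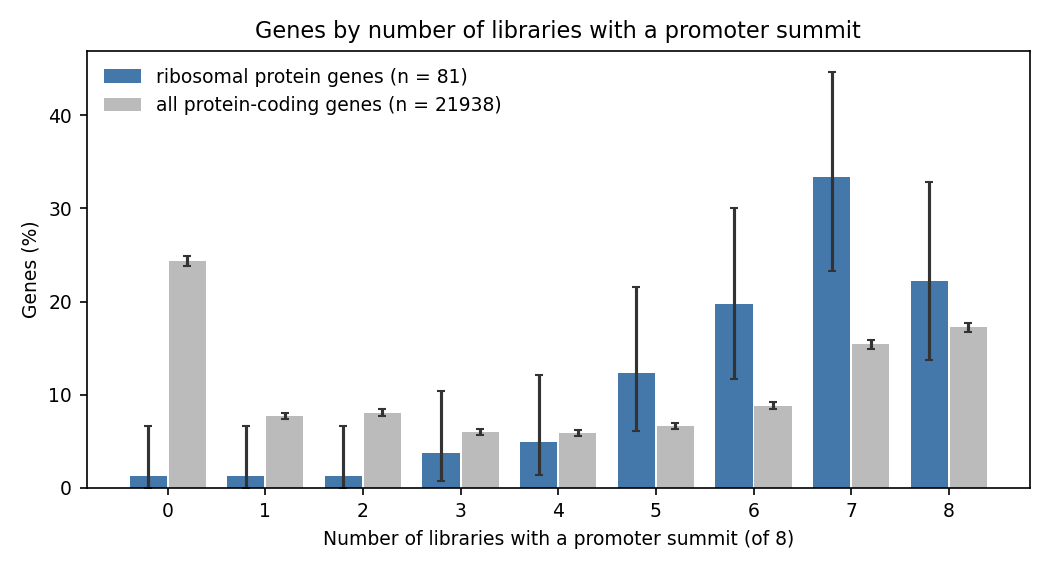
Percent of genes (y axis) by the number of libraries with a promoter summit (x axis, 0 to 8), for the 81 ribosomal protein genes and for all 21938 protein-coding genes, with exact 95% intervals. The ribosomal protein genes gather at 7 libraries (33.3%, against 15.4% of all genes), and 1 of 81 is at 0, where 24.4% of all genes lie.

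Peaks were ranked within each list by the authors' score, which rises with the significance of the peak over local background. The score percentile used here is the percent of peaks of the same list with a lower score, and where a gene had several promoter peaks the highest score was taken. By this measure the promoter peaks of ribosomal protein genes were of middle rank, and in each library their median was below that of all genes with a promoter peak. The median percentile of the members was 65.6 in native Nanog, where that of all genes was 66.9, and 64.2 in NanogBiD, where that of all genes was 68.4. In native Oct4 the 2 medians were 52.5 and 59.5, and in Oct4BiD 63.4 and 69.0.

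The lowest median of the members was in native Sox2, at 37.8, with 47.3 for all genes, and Sox2BiD had 57.4 and 61.1. Native Nr5a2 had 65.9 and 77.6, and Nr5a2BiD 62.6 and 72.7. Peaks among the highest 10 percent of a list were about as frequent at members as at all genes with a promoter peak in native Nanog (15.1% against 15.6%) and native Oct4 (9.80% against 10.2%), and their share was lower in the other 6 libraries. They were found at 9 members in native Nr5a2, which is 12.3% of those with a peak, against 27.5% of all genes with a promoter peak. In Sox2BiD, 2 members had such a peak, Rps19 and Rpl37, which is 2.82%, against 10.95%.

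In the 7 libraries other than native Sox2, the share of members came closer to that of all genes when each list was limited to its 20000 highest-scoring peaks. Native Nanog then had 27 members with a summit (33.3%), against 21.7% of all genes, and NanogBiD had 25 (30.9%), against 23.4%. Native Oct4 had 17 (21.0%), against 17.6%, and Oct4BiD had 18 (22.2%), against 19.7%. Native Sox2 had 4 (4.94%), against 7.83%, and Sox2BiD 8 (9.88%), against 10.6%. Native Nr5a2 had 21 (25.9%), against 27.9%, and Nr5a2BiD had 23 (28.4%), against 26.3%. At this limit the ratio to all genes ran from 0.631 to 1.54, and only Rps19 had a summit in all 8 libraries.

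Rps19 had the highest mean percentile of the group, although in 6 libraries another member ranked above it. It encodes a small-subunit protein whose loss causes the inherited failure of red cell formation known as Diamond-Blackfan anemia. Its score percentiles were 94.0 in native Nanog, 96.1 in NanogBiD, 88.7 in native Oct4, 96.7 in Oct4BiD, 95.3 in native Sox2, 93.2 in Sox2BiD, 95.6 in native Nr5a2 and 99.2 in Nr5a2BiD. Summit heights ran from 24 tags in native Oct4 to 68 tags in Nr5a2BiD. All 8 libraries were high at this gene, and it was the only member in the highest 10 percent of the native Sox2 list. The gene (ENSMUSG00000040952.16) lies on chromosome 7 at 24884371 to 24889806, and its summits lay between -270 bp and 34 bp from the nearest annotated start, where negative is upstream.

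The other 5 members of the highest 6 by mean percentile were Rpl37, Rpl7, Rps27l, Rps21 and Rpl27, of which Rpl37, Rpl7 and Rpl27 encode large-subunit proteins. Rpl37 had percentiles of 93.9 in native Nanog, 98.4 in NanogBiD, 90.4 in native Oct4, 98.8 in Oct4BiD, 59.99 in native Sox2, 93.4 in Sox2BiD, 90.8 in native Nr5a2 and 93.4 in Nr5a2BiD. Rpl7 had 90.6, 91.9, 91.7, 97.7, 30.4, 74.9, 97.4 and 97.9 in the same order of libraries. Both genes were lowest in native Sox2, and Rpl7 was also lower in Sox2BiD than in the remaining 6.

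Rps27l, a paralog of Rps27 that p53 activates, had percentiles of 91.1, 86.7, 82.7, 99.0, 27.5, 70.7, 99.8 and 99.0 in that order. Rps21 had 87.0, 85.3, 81.0, 91.2, 51.6, 81.0, 66.2 and 81.1. Rpl27 had 92.2, 88.0, 77.5, 97.5, 8.25, 72.1, 88.5 and 79.7. In each of these 3 genes native Sox2 was the lowest library, and its peak at Rpl27 reached 14 tags, near the lowest height of 10 tags in that list.

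**Figure D3:**
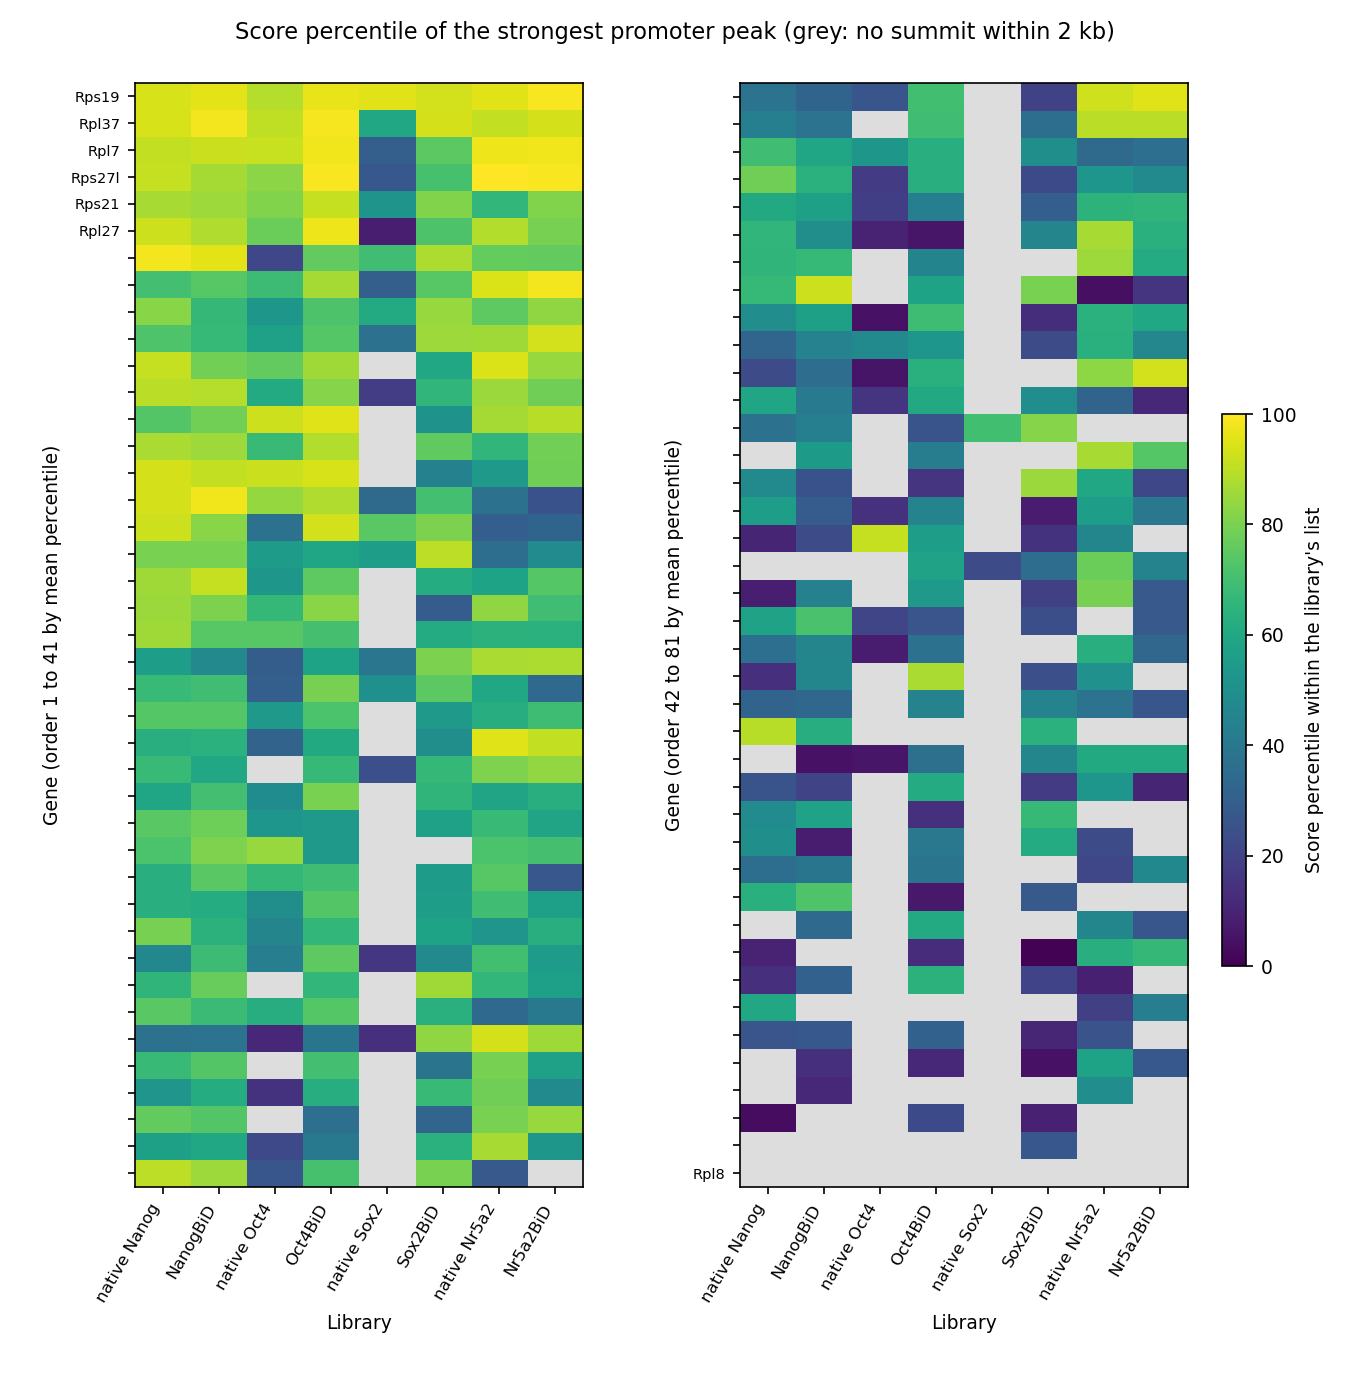
Score percentile of the strongest promoter peak (colour, 0 to 100) of each of the 81 ribosomal protein genes (rows, in order of the mean over libraries with no summit counted as 0) in each of the 8 libraries (columns). Grey marks no summit within 2 kb. The 6 highest rows and the last row are labelled. Rps19 is high in all 8 columns, the native Sox2 column is grey at 60 genes, and the last row, Rpl8, is grey throughout.

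The P stalk is the arm of the large subunit that recruits translation factors, and Rplp0, Rplp1 and Rplp2 encode its proteins. The start regions of Rplp0 and Rplp2 and of Rpsa, whose small-subunit protein is also known as a laminin receptor, are shown because these 4 named genes do not follow the numbering of the others, and the capitals mark the same motifs as above:
Rplp0, chr5:115559367-115559516, plus strand: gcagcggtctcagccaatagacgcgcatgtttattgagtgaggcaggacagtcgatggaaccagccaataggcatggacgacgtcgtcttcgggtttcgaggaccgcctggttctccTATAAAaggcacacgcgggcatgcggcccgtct
Rplp2, chr7:141447551-141447700, plus strand: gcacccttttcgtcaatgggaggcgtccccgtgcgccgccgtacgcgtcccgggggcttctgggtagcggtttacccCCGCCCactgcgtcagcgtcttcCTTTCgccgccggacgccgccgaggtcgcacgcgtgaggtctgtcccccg
Rpsa, chr9:120127666-120127815, plus strand: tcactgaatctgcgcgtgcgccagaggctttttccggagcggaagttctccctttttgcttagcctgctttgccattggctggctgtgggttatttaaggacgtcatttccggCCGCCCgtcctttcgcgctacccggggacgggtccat

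Rplp2 starts within a run of pyrimidines of the TOP kind, and Rplp0 has TATAAA downstream of the annotated start. Rplp0 had score percentiles of 74.2 in native Nanog, 68.2 in NanogBiD, 62.5 in native Oct4, 73.5 in Oct4BiD, 63.4 in Sox2BiD, 34.3 in native Nr5a2 and 40.3 in Nr5a2BiD, with no summit in native Sox2. Rplp1 had 93.6, 91.0, 92.0, 94.1, 43.9, 54.1 and 78.1 in the same 7 libraries. Rplp1 was thus high in the Nanog and Oct4 libraries and lower in Sox2BiD and native Nr5a2.

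Rplp2 had 60.8, 56.9, 18.5, 43.1, 29.8, 64.6 and 65.4 in those 7 libraries, with heights of 11 to 27 tags. Rpsa had 90.1 in native Nanog, 85.5 in NanogBiD, 26.9 in native Oct4, 70.9 in Oct4BiD, 80.0 in Sox2BiD and 27.8 in native Nr5a2, and no summit in native Sox2 or Nr5a2BiD. The 3 stalk genes and Rpsa had no native Sox2 summit, like 60 of the 81 members, and Rplp1 ranked highest of the stalk genes in the Nanog and Oct4 libraries.

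Among the members with the lowest mean percentile were Rps27, Rpl36, Rpl19, Rpl3l and Rpl8. Rps27 had 13.8 in NanogBiD, 11.7 in Oct4BiD, 4.74 in Sox2BiD, 58.0 in native Nr5a2 and 27.6 in Nr5a2BiD. Rps27 was low wherever a summit was called except in native Nr5a2, where the summit lay at -512 bp from the nearest start (negative is upstream).

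Rpl36 had a summit in NanogBiD at percentile 11.5 and in native Nr5a2 at percentile 49.0, where its height was 51 tags. Rpl19 had summits in native Nanog at 3.19, in Oct4BiD at 22.6 and in Sox2BiD at 9.04, with heights of 10, 18 and 10 tags. Rpl3l had a summit in Sox2BiD alone, at percentile 27.1 and at -1488 bp from its start. Rpl8, whose protein lies at the peptidyl transferase center (ENSMUSG00000003970.9, chromosome 15, 76904078 to 76906314), had no peak that reached into its window in any library. Its nearest summits were 3830 bp to 4375 bp from a start in 7 libraries and 16801 bp away in native Sox2. Of these genes, Rpl3l is the muscle paralog and the others encode proteins of the ribosome in all cells.

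The BiD and native libraries of each factor were set side by side. With 1 library per form, an effect of the fusion cannot be told apart from other differences between 2 libraries. In the Oct4 pair, the share of members with a summit was higher in Oct4BiD by 30.9 points, against 17.0 points over all genes. The same difference was 35.9 points for mitochondrial ribosomal protein genes, 32.5 for proteasome genes, 22.1 for translation factor genes and 21.4 for ribosome assembly genes. Among the members, 25 had a summit in Oct4BiD only, against a background of 18.4% of all genes, and 0 in native Oct4 only, against 1.42%. The 3 with the highest scores of the 25 were Rpl9, at percentile 87.2 in Oct4BiD, Rpl39, at 70.2, and Rpl11, at 69.4. Among the 51 members with a summit in both, the percentile was higher in Oct4BiD at 47, by a median of 19.0, where the median over all genes was 14.1.

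In the Sox2 pair, the difference in share was 61.7 points, against 28.2 over all genes. A summit in Sox2BiD only was found at 50 members, where the background was 28.9%, and in native Sox2 only at 0, where it was 0.720%. The highest scores of the 50 were at Rps13, at percentile 85.9 in Sox2BiD, Rps15, at 84.9, and Rpsa, at 80.0. Of the 21 members with a summit in both forms, 20 had the higher percentile in Sox2BiD, by a median of 34.1, against 23.5 over all genes. Within the 20000 highest-scoring peaks of each list the difference in share was 1.23 points for Oct4 and 4.94 points for Sox2, so the size of both differences depended on peaks of lower rank. Over all genes the shares at this limit were 17.6% in native Oct4 and 19.7% in Oct4BiD, and 7.83% in native Sox2 and 10.6% in Sox2BiD. Native Oct4 and native Sox2 had fewer peaks than their BiD libraries (54794 and 58162, against 93978 and 120594), and the part of peak number in these differences was not tested.

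In the Nanog pair, the shares differed by 2.47 points (3.30 over all genes). A summit in NanogBiD only was found at Rpl6, Rps4x, Rps27, Rpl36 and Rpl12, at percentiles of 54.5, 34.2, 13.8, 11.5 and 5.02, where the background was 6.08% of all genes. A summit in native Nanog only was found at Rpl39l, Rpl35 and Rpl19, at 59.6, 9.42 and 3.19, where it was 2.78%. At the 70 members with both, NanogBiD was higher at 37, with a median difference of 0.776. With the 20000 highest-scoring peaks the difference in share was -2.47 points, so no direction is given for Nanog.

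In the Nr5a2 pair, the difference in share, BiD minus native, was -7.41 points for the members and -9.49 points for all genes. A summit in Nr5a2BiD only was found at 1 member, against a background of 1.35%. A summit in native Nr5a2 only was found at 7 members, against 10.8% of all genes, and the 3 with the highest scores were Rpl9, at percentile 50.5, Rpl36, at 49.0, and Rpl17, at 46.0. Among the 66 members with both, 29 ranked higher in Nr5a2BiD, with a median difference of -0.935. The difference in share was 0 points with a window of 500 bp and 2.47 points with the 20000 highest-scoring peaks, so no direction is given for Nr5a2.

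**Figure D4:**
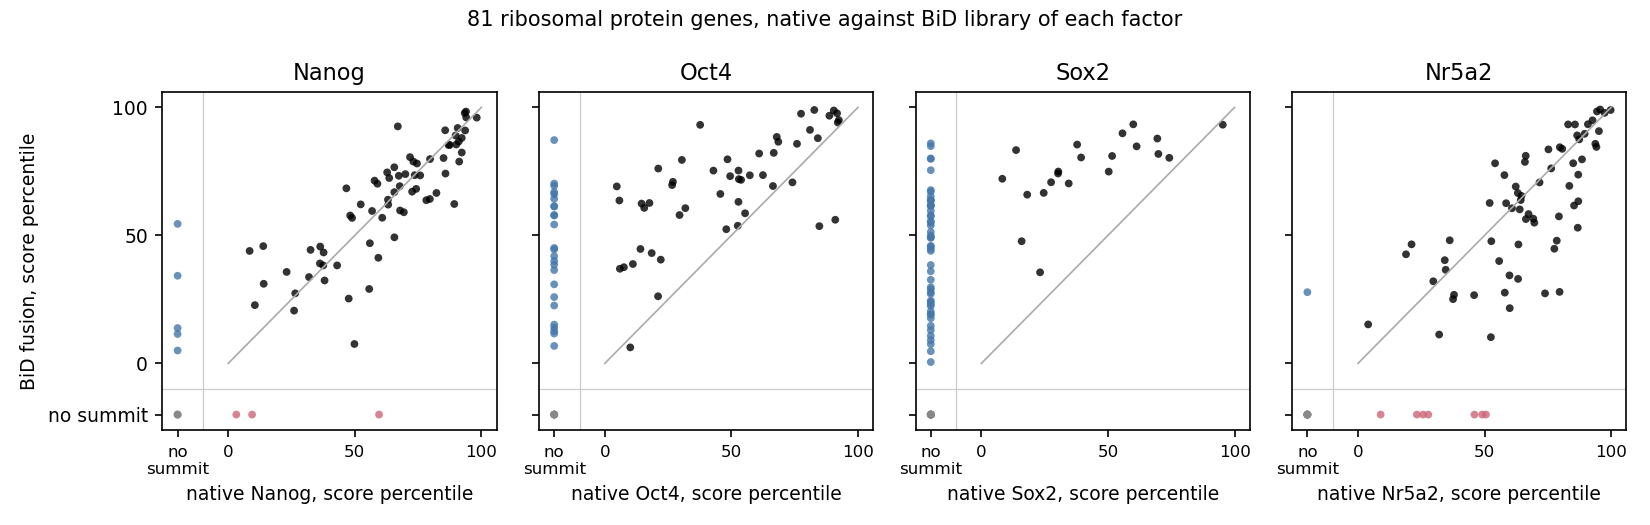
Score percentile of the strongest promoter peak in the BiD library (y axis) against that in the native library (x axis) for the 81 ribosomal protein genes, with 1 panel for each factor. Black points have a summit in both, blue in the BiD library only, red in the native library only and grey in neither, and the line marks equal percentiles. Blue points number 25 for Oct4 and 50 for Sox2, and the black points of these panels lie mostly above the line (47 of 51 and 20 of 21).

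Members with a native Sox2 summit ranked higher than the others in the other libraries as well. The 21 members with a native Sox2 summit had a median percentile of 80.3 in Sox2BiD, and the 50 others with a Sox2BiD summit had 45.8. In libraries of other factors the medians were 84.6 against 60.8 in native Nanog, 79.5 against 60.7 in Oct4BiD and 82.8 against 63.1 in native Nr5a2. The members with a native Oct4 summit also ranked above the others, with medians of 72.9 against 47.6 in native Nanog and of 70.9 against 44.5 in Oct4BiD. These splits were not made over all genes, so whether the higher ranks are particular to the members is not shown.

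The order of the members was compared between libraries. For the 2 libraries of a factor, Spearman's rho of the percentiles was 0.867 for Nanog over 70 members, 0.689 for Oct4 over 51, 0.704 for Sox2 over 21 and 0.773 for Nr5a2 over 66. Over all genes the same 4 values were 0.810, 0.677, 0.593 and 0.801. The 24 pairs of libraries of different factors gave values from -0.290 (native Sox2 with native Nr5a2, over 20 members) to 0.680 (NanogBiD with native Oct4, over 51), and from 0.0807 to 0.559 over all genes. The 4 pairs of a Nanog with an Oct4 library gave 0.597 to 0.680 over the members, close to the value within Oct4. Over all genes these 4 pairs gave 0.470 to 0.559, below the 0.677 within Oct4. These are descriptions across genes, which are not independent replicates, and the points of a library share its depth and its local background.

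Summits lay just upstream of the start. The median position was between -102 bp (native Sox2) and -37 bp (native Nr5a2) from the nearest annotated start. Over all genes it was between -92 bp and -32 bp, in the same libraries. Within 250 bp of a start lay 66.7% to 89.5% of the members' summits, against 48.9% to 67.1% over all genes. In each library the share of members was above that of all genes, as in Oct4BiD, where 68 of 76 summits (89.5%) lay that close and 63.7% did over all genes. Closeness to the start was not particular to the members. The share was 63.0% to 90.6% at mitochondrial ribosomal protein genes and 64.9% to 94.1% at proteasome genes. The members have a median of 6 distinct annotated starts and all genes of 3, and the part of this in the shares near a start was not tested. In native Nr5a2, 30 of 73 summits (41.1%) were at or downstream of the start, against 42.7% over all genes, and in native Oct4 7 of 51 were (13.7%), against 34.0%.

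Not every summit was closest to a member's own start. Of the members' summits, 2 of 21 in native Sox2 to 16 of 76 in Oct4BiD lay nearer to the start of another annotated gene. A start of another gene on the opposite strand lay within 1 kb at 24 members, and 24 of these 24 had a summit in Oct4BiD and 4 in native Sox2. Of the 57 others, 52 had a summit in Oct4BiD and 17 in native Sox2. Neither the nearer starts nor the opposite-strand starts were counted over all genes, so whether these counts are usual for promoters is not known.

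**Figure D5:**
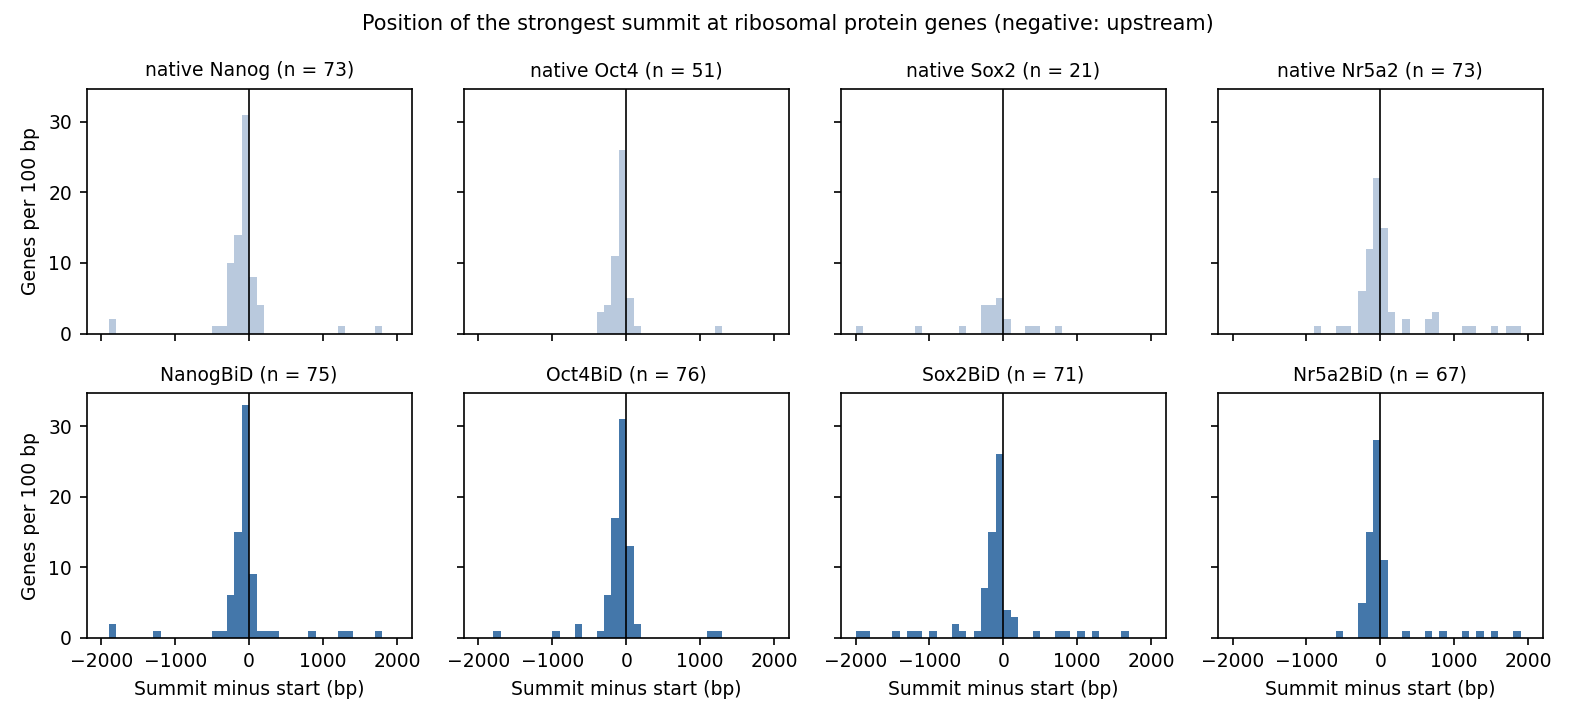
Number of ribosomal protein genes (y axis, per 100 bp) by the position of the strongest promoter summit relative to the nearest annotated start (x axis, bp, negative is upstream), with 1 panel for each library. The tallest bar of each panel lies within the 100 bp upstream of the start, and scattered genes lie beyond 1 kb (8 in Sox2BiD, 1 in native Oct4).

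In both subunits the share was lowest in native Sox2 and next lowest in native Oct4. The 31 small-subunit genes all had a summit in NanogBiD and in Oct4BiD (100%, 88.8 to 100), and 29 had one in Sox2BiD. Of the 50 large-subunit genes, 44 had a summit in NanogBiD (88.0%, 75.7 to 95.5), 45 in Oct4BiD (90%, 78.2 to 96.7) and 42 in Sox2BiD. In native Sox2 the counts were 10 of 31 (32.3%, 16.7 to 51.4) and 11 of 50 (22.0%, 11.5 to 36.0). A summit in all 8 libraries was found at 9 genes of each subunit. The intervals of the subunits overlapped in each of these libraries. The 29 members with a snoRNA gene inside had a summit in all 29 in NanogBiD and Oct4BiD and in 8 in native Sox2. Of the 52 members without one, 46 had a summit in NanogBiD (88.5%), 47 in Oct4BiD (90.4%) and 13 in native Sox2. The intervals of members with and without a snoRNA gene overlapped in each of these libraries.

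The selected paralogs of other members differed among themselves. Of the 5 that are annotated as protein coding, Rps27l and Rpl36al had summits in 8 and 7 libraries. Rpl36al, a paralog of Rpl36a, had percentiles of 53.8 to 73.7 in the 7 libraries other than native Sox2. Rpl10l, a testis paralog of Rpl10, had summits in native Nanog at 89.3, in NanogBiD at 62.2 and in Sox2BiD at 63.8, all of them between -1896 bp and -1818 bp from its start. Rpl39l, a testis paralog of Rpl39, had summits in native Nanog at 59.6, native Nr5a2 at 19.0 and Nr5a2BiD at 42.6. The relatives Rpl10, Rpl3, Rpl39 and Rps27 had summits in 8, 8, 6 and 5 libraries. Near-identical copies are a limit here, since reads of low mapping quality were removed.

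Genes outside the naming rule that also encode ribosomal proteins fell in the same range. Rps3a1, which encodes the small-subunit protein Rps3a, had summits in 6 libraries, with percentiles of 77.7 in native Nanog, 98.9 in NanogBiD, 87.5 in native Oct4, 95.5 in Oct4BiD, 36.0 in Sox2BiD and 26.1 in Nr5a2BiD. Fau, a fusion of a ubiquitin-like protein with a small-subunit protein, also had summits in 6. The paralogs Rpl22l1 and Rpl7l1 had summits in 7 and 6 libraries. Of the genes named here, Rpl7l1 alone had a native Sox2 summit, at percentile 8.85.

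The motifs of the delivered factors were rare at the members' summits. Within 50 bp of the strongest summit, the NR5A motif CAAGGNCA was found on either strand at 4 of 73 members in native Nr5a2 (5.48%, 1.51 to 13.4), against 13.4% of all genes with a promoter summit. They included Rpl7a, Rpl35 and Rps15a, named after their values were seen. In Nr5a2BiD it was found at 2 of 67 (2.99%, 0.364 to 10.4), Rpl35 and Rps15a, against 9.07%. The octamer ATGCAAAT was found at 0 of 76 in Oct4BiD (0%, 0 to 4.74), against 4.25% of all genes. In native Oct4 it was found at 0 of 51 (0%, 0 to 6.98), against 1.78%.

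The SOX motif CCATTGTT was found at 0 of 71 in Sox2BiD (0%, 0 to 5.06), against 1.80%, and at 0 of 21 in native Sox2 (0%, 0 to 16.1), against 1.159%. The NANOG motif GCCATTA was found at 1 of 75 in NanogBiD and 1 of 73 in native Nanog, against 0.970% and 0.658% of all genes, in both at Rpl13a, which carried it in 7 libraries. The AP-1 motif TGANTCA was found at 0 to 2 members per library, and at 2.45% to 6.67% of all genes with a promoter summit, among the members Rpl10l in both Nanog libraries. For each factor's own motif, the background lay within the exact interval of the members in all 8 libraries, with an upper bound of 4.74% in Oct4BiD. A share below that of other promoters was therefore not shown.

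Other housekeeping groups gave similar shares. The 78 mitochondrial ribosomal protein genes had a summit at 82.1% in native Nanog, 52.6% in native Oct4, 34.6% in native Sox2, 80.8% in Sox2BiD and 96.2% in native Nr5a2. The 40 proteasome genes had 85.0%, 57.5%, 30%, 85.0% and 92.5% in the same 5 libraries. The shares of both lists lay within the intervals of the cytosolic ribosomal protein genes in these libraries except in native Nr5a2, where the mitochondrial list was above the upper bound of 95.6%. The median percentile of the mitochondrial list was above that of the cytosolic genes in native Nr5a2 (79.5 against 65.9), Nr5a2BiD (73.4 against 62.6) and native Oct4 (61.8 against 52.5). It was below in native Nanog (60.5 against 65.6), NanogBiD, Oct4BiD, native Sox2 and Sox2BiD (50.5 against 57.4).

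The 28 ribosome assembly genes, such as Ncl and Fbl, which encode nucleolar proteins, had a summit at all 28 in native Nanog, NanogBiD, Oct4BiD, Sox2BiD and native Nr5a2, at 27 in Nr5a2BiD, at 22 in native Oct4 and at 13 in native Sox2. A summit in all 8 libraries was found at 12 of them (42.9%, 24.5 to 62.8), against 22.2% of the cytosolic ribosomal protein genes. The 68 translation factor genes had a median percentile of 87.1 in native Nr5a2 and of 80.4 in NanogBiD, against 65.9 and 64.2, and 27 of them (39.7%, 28.0 to 52.3) had a summit in all 8. At the other end, 2.11% to 5.99% of the 1135 olfactory receptor genes had a promoter summit per library. The 301 ribosomal protein pseudogenes of the annotation, a list added after the data were seen, had one at 5.65% to 15.6% per library and none of them had one in each of the 7 libraries other than native Sox2.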

How the data were processed

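Flag CUT&Tag peak lists of 8 libraries were used, 1 per group. Per the labels and methods, reads were trimmed by the authors (Trim Galore 0.6.4) and aligned to mm10 (bowtie2 2.4.5). The authors removed repetitive, mitochondrial and poorly mapped reads with SAMtools 1.16.1 and called peaks with MACS 1.4.2 without a control. The methods state that replicates were merged, and the reporting summary that the assay was performed once, so whether a list pools replicates is not known.

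Each deposited peak carries a score, which is -10 times log10 of the MACS p-value as the authors' caller wrote it, of at least 50. The deposited signal at a summit is its height in whole tags. Neither is scaled to depth, so scores were ranked within a list.

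Genes and starts came from GENCODE M21, whose assembly is that of mm10, and promoter sequences from RefSeq (GRCm38.p6). A promoter was 2 kb either side of a start. Shares carry exact 95% intervals, which cover counting error only, and with 1 library per group no test was run. Searches were tested on simulated peaks. Members and lists were chosen with earlier results of these data known. Named genes were Rplp0, Rplp1, Rplp2 and Rpsa, the 6 highest and 6 lowest by mean percentile (absent as 0), members without a summit, members with a summit in a single form (all if at most 5, otherwise the 3 highest scores), selected paralogs of other members and genes outside the naming rule. Some genes that these rules name are not reported here. Python 3.11.15, NumPy 2.4.6, SciPy 1.17.1 and matplotlib 3.10.9 were used.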

Additional observations from a re-analysis of the deposited data

Results flagged for a closer look

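With all peaks and a window of 2 kb, the differences of the Nr5a2 pair had the opposite sign to those of the other 3 factors. The share of ribosomal protein genes with a promoter summit differed between the BiD and the native library by -7.41 points for Nr5a2, and by 2.47, 30.9 and 61.7 points for Nanog, Oct4 and Sox2. The median difference in score percentile at members with a summit in both forms was -0.935 for Nr5a2, and 0.776, 19.0 and 34.1 for the others. With 1 library per form, the difference between factors was not tested. The share difference of Nr5a2 was 0 with a window of 500 bp and 2.47 points with the 20000 highest-scoring peaks, and that of Nanog was -2.47 points with the latter, so the opposite sign did not hold across settings. Over all protein-coding genes the differences in share were -9.49 points for Nr5a2 and 3.30, 17.0 and 28.2 points for Nanog, Oct4 and Sox2. Nr5a2 was also the pair in which the native list was the longer (108030 peaks, against 76217), and the part of peak number was not tested.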

How the results depend on the processing

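No paired analysis was possible because each group holds 1 library, so no replicate numbers could pair samples. The native and BiD libraries of a factor are set side by side, and no p is given over members chosen with results known. The median score percentile stayed within its 95% interval in all 16 alternatives tried (summit height in place of score, and a window of 500 bp). The share of members stayed within its interval in 38 of 56 alternatives, and all 16 of those with a stricter peak limit lay outside. With a score of at least 100, the shares in the order native Nanog, NanogBiD, native Oct4, Oct4BiD, native Sox2, Sox2BiD, native Nr5a2 and Nr5a2BiD were 70.4%, 76.5%, 35.8%, 81.5%, 13.6%, 63.0%, 72.8% and 61.7%, and over all genes 40.1%, 45.0%, 24.99%, 46.4%, 15.5%, 42.4%, 53.9% and 42.6%. With the 20000 highest-scoring peaks they were 33.3%, 30.9%, 21.0%, 22.2%, 4.94%, 9.88%, 25.9% and 28.4%. A window of 500 bp gave 71.6% in Sox2BiD and 77.8% in native Nr5a2. A window of 1 kb, any base of the peak in the window, the start of the gene record alone and the wide list of 86 genes left the shares within their intervals.

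The number of members with a summit in all 8 libraries was 18, and 5 with a score of at least 100 (6.17%, against 8.34% of all genes) and 1 with the 20000 highest-scoring peaks (1.23%, against 2.04%). Leaving out 1 library at a time gave 18 to 44, and 44 was the number without native Sox2. The BiD minus native difference in share was 45.7 points for Oct4 and 49.4 points for Sox2 with a score of at least 100, and 49.4 points for Sox2 and 0 for Nr5a2 with a window of 500 bp. With the 20000 highest-scoring peaks it was -2.47 points (Nanog), 1.23 (Oct4), 4.94 (Sox2 pair) and 2.47 points in the Nr5a2 pair, so that the sign changed for Nanog and Nr5a2. Over all genes the native and BiD shares at this limit were 21.7% and 23.4% for Nanog and 17.6% and 19.7% for Oct4. They were 7.83% and 10.6% for Sox2 and 27.9% and 26.3% for Nr5a2. The cause of the changes between settings was not tested, beyond fewer peaks being kept by construction.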
